A study of Mus musculus with 15 samples.

Results

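Fetal and tumour-associated liver genes are genes that the liver expresses before birth, or that liver tumours and injured liver express, and that normal adult liver keeps low. The 8 genes described here were Spink1, Tff3, Afp, H19, Gpc3, Golm1, Ly6d and Cdc42ep5, taken by gene symbol from the 23509 genes measured. They were picked from measured values of these same libraries. The record does not say which values were used, and the genotype comparison under ethanol is treated here as the one that chose them. Its values for the 8 genes are therefore a description with no test. The pair-fed libraries come from other mice by their titles, and their adjusted p is given for 6 genes. It is withheld for Golm1 and Ly6d, whose clearest separation lies under pair-feeding and may have entered the choice. The pair-fed results were known when the genes were taken, so none of these p-values is independent support.

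RNA-seq of liver was measured in 15 male C57BL/6 mice, 8 to 10 weeks old by the labels. The groups were Aldh2-/- mice on an ethanol diet (n = 4), wild-type (WT) mice on an ethanol diet (n = 5), pair-fed Aldh2-/- mice (n = 3) and pair-fed WT mice (n = 3). Aldh2-/- mice lack the mitochondrial enzyme that clears acetaldehyde, the product of ethanol oxidation, and the deletion is in the whole animal. By the study's annotation, mice of all 4 groups also received the liver toxin carbon tetrachloride (CCl4) in olive oil into the peritoneum, 2 times per week for 8 weeks, with livers taken 24 h after the final injection. Titles of the samples mention CCl4 for the ethanol groups only, and no group without CCl4 was analysed here. Libraries are named below by the number in their title. Values are FPKM, fragments scaled to gene length and to the size of the library.

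In the mouse, Afp, H19 and Gpc3 are abundant in fetal liver and are switched off in the weeks after birth, and Zhx2 is a known repressor of all of them in the adult. Afp and Gpc3 return in hepatocellular carcinoma and serve as markers of it. Spink1, Tff3 and Golm1 are products that are scarce in normal hepatocytes and have been measured in diseased liver or liver cancer. Ly6d and Cdc42ep5 belong to the families of Ly6 surface proteins and of Cdc42 effectors. For Ly6d and Cdc42ep5 no fetal or tumour role is given here. Ly6d was not low in these livers, at 21.5 to 77.2 FPKM in the WT libraries of both diets.

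Aldh2 itself checked the genotype labels, at 10.4 ± 1.12 and 6.75 ± 0.171 FPKM in Aldh2-/- libraries under ethanol and pair-feeding (SD, n = 4 and 3) and 634 ± 60.7 and 290.0 ± 16.9 in WT libraries (SD, n = 5 and 3). Relative depth lay between 90.0% and 111.0% of the mean. Alb, the main plasma protein of hepatocytes, was at 33370 to 61215 FPKM in the 15 libraries. The 13 mitochondrially encoded genes took 15.2% to 24.2% of the summed FPKM in the pair-fed WT libraries and 6.90% to 10.8% in the pair-fed Aldh2-/- libraries. FPKM of the other genes is relative to what remains, and the part of this difference in the pair-fed results was not tested beyond the refit without those genes given below. The share was also uneven among ethanol-fed libraries. It was 7.83% to 18.2% in Aldh2-/- libraries, highest in library 90, and 6.68% to 13.6% in WT libraries, highest in library 5. In bulk liver, a lower value from fewer cells of a type and from less RNA per cell cannot be told apart.

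Under ethanol, Spink1, Tff3 and Cdc42ep5 were far more abundant in the Aldh2-/- livers than in WT livers, by 34.3-fold, 15.7-fold and 11.3-fold in the ratio of mean FPKM. Afp followed with 6.73-fold. These 4 of the 8 genes were called higher (Benjamini-Hochberg adjusted p under 0.05 over all genes), beside 21.5% of the 11013 genes tested (37.2% were called in either direction). In the same 4 genes the groups did not overlap, beside 27.1% of those genes without overlap in either direction. H19 at 2.61-fold, Ly6d at 2.50-fold, Gpc3 at 1.90-fold and Golm1 at 1.20-fold were not called, and their ranges overlapped. Since this comparison is taken to have chosen the genes, nothing is read from these counts.

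Under pair-feeding, Golm1 had the largest difference, 3.48-fold between the means of Aldh2-/- and WT livers, followed by Spink1 at 3.11-fold, H19 at 2.45-fold, Tff3 at 2.40-fold, Afp at 2.33-fold and Ly6d at 1.87-fold. By the limma fit, 5 of the 8 genes were called higher, Golm1, Spink1, Tff3, Afp and Ly6d, and none lower, against 26.0% of the 11138 genes tested that were called higher and 2.41% called lower (28.4% in either direction). In 4 of the 8 the libraries of the groups did not overlap and the Aldh2-/- libraries were higher, beside 48.4% of all genes tested without overlap in either direction. The median log2 change was 0.26 over all genes tested and 0.92 over the 8. After median-ratio rescaling of the libraries, which moves the median of all genes to 0.00, 1 of the 8, Golm1, was still called. The pair-fed values of Golm1 and Ly6d may have entered the choice, and all pair-fed results were known when the genes were taken. Nothing is therefore read from these counts and medians either.

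**Figure D1:**
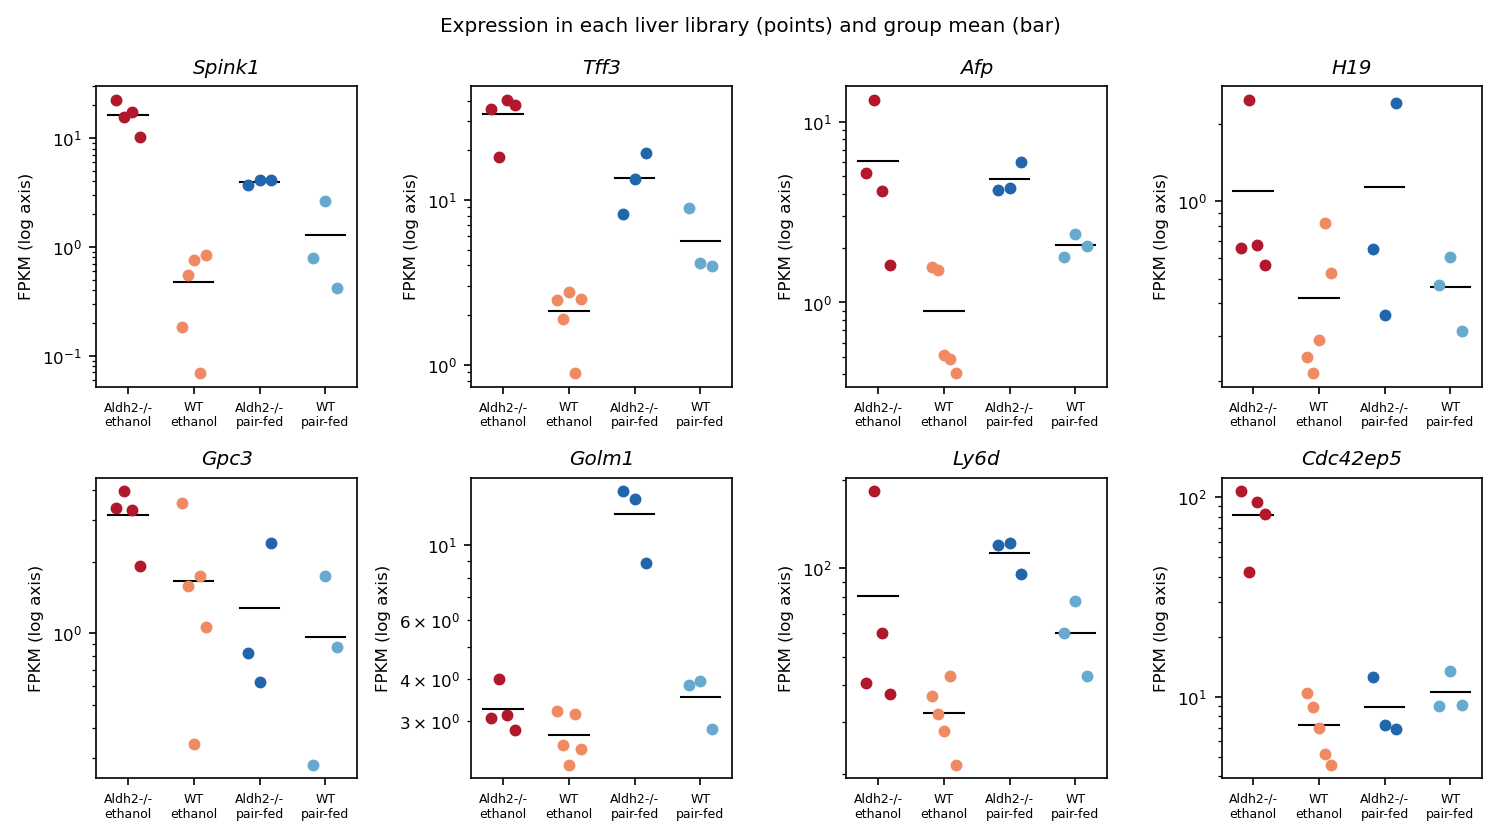
FPKM of each of the 8 genes in each library on a log axis, by group; points are libraries and short lines are group means. The ethanol-fed Aldh2-/- libraries lie above all others in Spink1 and Cdc42ep5, and in Tff3 all but library 89 do (18.3, below the 19.3 of pair-fed Aldh2-/- library 9), while Golm1 is highest in the pair-fed Aldh2-/- libraries.

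**Figure D2:**
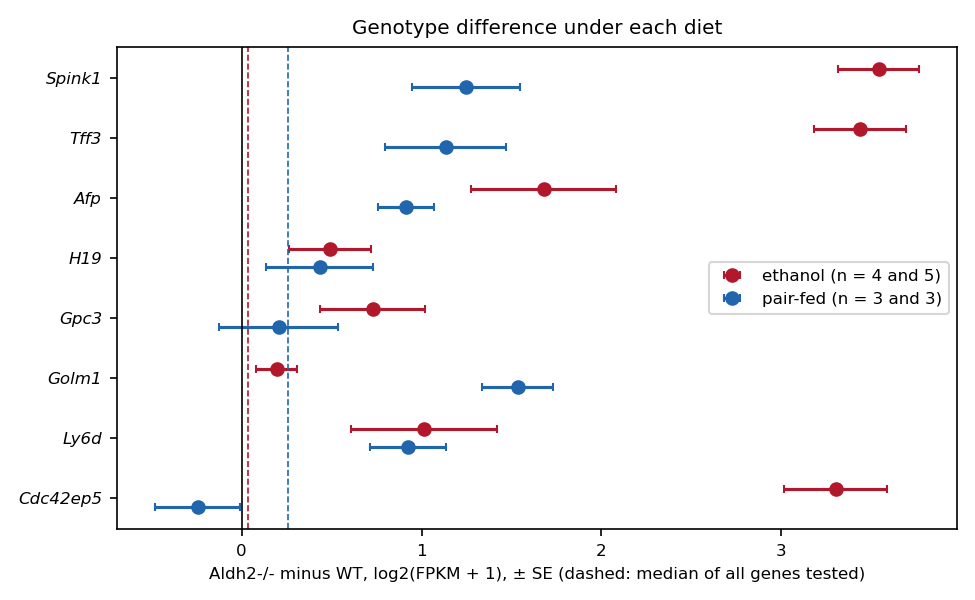
Genotype difference of each gene on the log2(FPKM + 1) scale, Aldh2-/- minus WT, with its standard error from limma, under ethanol and under pair-feeding. Cdc42ep5 is at 3.30 under ethanol and -0.24 under pair-feeding, and Golm1 at 0.19 and 1.53.

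Spink1 encodes a secreted Kazal-type inhibitor of trypsin, known from the acinar cells of the pancreas. The ethanol-fed Aldh2-/- libraries held 22.6, 15.7, 17.3 and 10.1 FPKM in libraries 86, 89, 90 and 96. The 5 ethanol-fed WT libraries held 0.182, 0.546, 0.750, 0.0689 and 0.843 FPKM in libraries 5, 6, 7, 11 and 12. All 4 of the former lay above all 5 of the latter, which rested on 1 to 13 fragments each, against 142 to 368. In the pair-fed Aldh2-/- libraries 1, 2 and 9 Spink1 was at 3.69, 4.11 and 4.13 FPKM, and in the pair-fed WT libraries 18, 19 and 20 at 0.787, 2.63 and 0.422. The WT group was spread over a wide range and the Aldh2-/- group was tight, and the groups did not overlap. The log2 change was 1.25 ± 0.30 (SE; limma adjusted p = 0.0226), and the exact two-sided permutation p was 0.1, the smallest that 3 against 3 libraries can give. Without WT library 19 the ratio of means was 6.58 in place of 3.11. After median-ratio rescaling the log2 change was 1.02 and the adjusted p 0.107. Spink1 was thus placed in the order ethanol-fed Aldh2-/-, pair-fed Aldh2-/-, pair-fed WT, ethanol-fed WT, with means of 16.4, 3.98, 1.28 and 0.478 FPKM, and only the last neighbours in that order overlapped.

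Pancreatic acinar genes (proteases, lipase and amylase) were summed over the 16 measured. Under ethanol, library 86, highest in Spink1, had a sum of 7.62 FPKM with 9 of the 16 genes at 0, and library 89 a sum of 7.65 with 9 at 0. Libraries 90 and 96 had sums of 36.6 and 34.7, and ethanol-fed WT library 5, at 0.182 FPKM of Spink1, had 27.8. Most of the low sums was the elastase gene Cela1, at 6.11 FPKM in library 86 and 7.36 in library 89. Cela1 was at 4.82 to 13.1 FPKM in all 15 libraries. The trypsin gene Prss2 was at 0 in libraries 86 and 89. In the pair-fed groups the sum was 11.8 to 51.6 FPKM in Aldh2-/- and 8.32 to 12.4 in WT libraries, and 3 of the 11 acinar genes tested were called higher, Prss2, Cela2a and Try5, beside 26.0% of all genes. At an unadjusted limma p under 0.05, 10 of the 11 were higher. Pair-fed Aldh2-/- library 9, with the sum of 11.8, held 4.13 FPKM of Spink1, and libraries 1 and 2, with sums of 44.7 and 51.6, held 3.69 and 4.11. Under ethanol the limma fit called 0 of the 9 acinar genes tested, and 0 had an unadjusted p under 0.05. The part of acinar RNA in the pair-fed Spink1 difference was not tested further. Of the 11 other Spink genes listed, 5 were in the tables, and none of them averaged 0.5 FPKM in either comparison.

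Tff3 encodes trefoil factor 3, a small secreted peptide of mucus-producing epithelia. It stood at 35.6, 18.3, 40.6 and 37.7 FPKM in the ethanol-fed Aldh2-/- libraries 86, 89, 90 and 96, and at 2.47, 1.89, 2.76, 0.888 and 2.51 in WT libraries 5, 6, 7, 11 and 12. Library 89 was the lowest of its group and still lay above the highest WT library. In pair-fed Aldh2-/- libraries 1, 2 and 9 it was at 8.17, 13.4 and 19.3 FPKM, and in WT libraries 18, 19 and 20 at 8.88, 4.15 and 3.95. These pair-fed ranges overlapped through WT library 18 and Aldh2-/- library 1. The log2 change was 1.14 ± 0.34 (SE; limma adjusted p = 0.0389), with an exact permutation p of 0.2, and after median-ratio rescaling it was 0.83 with an adjusted p of 0.159. Its related gene Tff2 was tested under ethanol only and not called (0.776 ± 0.584 against 0.504 ± 0.611 FPKM, SD, n = 4 and 5, adjusted p = 0.486).

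Bile duct cells are a known site of Tff3 in liver. The summed level of 14 cholangiocyte markers was 199 to 337 FPKM in the ethanol-fed Aldh2-/- libraries and 74.7 to 209.9 in WT libraries, and 7 of the 12 tested were called higher and none lower, beside 21.5% of all genes called higher. Most of each sum was Spp1, at 141 to 282 FPKM in these Aldh2-/- and 46.3 to 158 in these WT libraries, while Krt7 and Krt19 were at no more than 6.21 and 9.06 in any library. Libraries 86, 89, 90 and 96 had sums of 205, 311, 337 and 199, and WT libraries 5, 6, 7, 11 and 12 had 209.9, 78.3, 74.7, 136 and 92.2. In the pair-fed groups the sums were 180 to 291 and 89.1 to 139, and 2 of 10 were called higher, beside 26.0%. The part of duct cells in the Tff3 differences was not tested. The summed level of 10 intestinal markers was 35.0 to 73.2 FPKM in ethanol-fed Aldh2-/- and 60.7 to 104 in WT libraries. Only Fabp2 and Lgals4 averaged 0.5 FPKM or more in a comparison. In each library 2 to 6 of the 10 were at 0, so the sum stands for few genes. Of 2 tested under ethanol, 1 was called lower, Fabp2, and 0 higher, beside 15.7% and 21.5% of all genes. The pair-fed sums were 129 to 213 in Aldh2-/- and 141 to 178 in WT libraries, and 0 of 2 were called. Among these markers, the goblet genes Muc2 and Fcgbp were at no more than 0.00827 and 0.0424 FPKM in any library. Agr2 reached 0.204 FPKM in ethanol-fed Aldh2-/- library 86. Zg16 reached 1.45 FPKM in ethanol-fed Aldh2-/- library 90, the library highest in Tff3, 1.04 in pair-fed Aldh2-/- library 2 and 0.715 in ethanol-fed WT library 5, and their part in the Tff3 values was not tested.

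**Figure D3:**
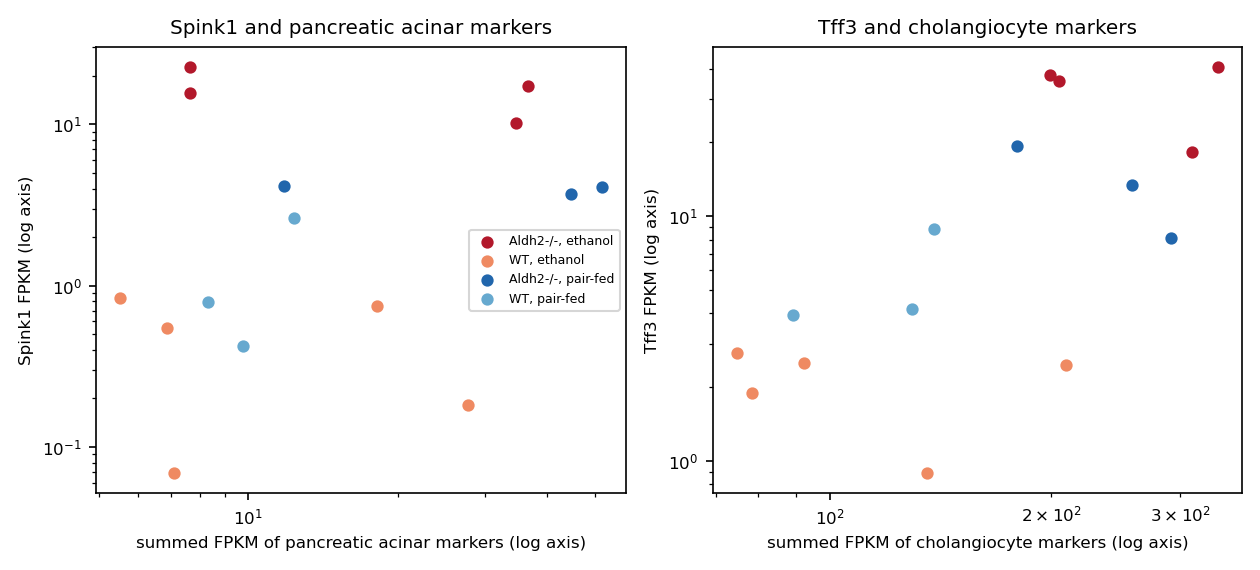
Left, Spink1 against the summed FPKM of 16 pancreatic acinar markers; right, Tff3 against the summed FPKM of 14 cholangiocyte markers; both axes are logarithmic and each point is 1 of the 15 libraries. Ethanol-fed Aldh2-/- libraries lie at 10.1 to 22.6 FPKM of Spink1 over acinar sums of 7.62 to 36.6, and at 18.3 to 40.6 FPKM of Tff3 over cholangiocyte sums of 199 to 337.

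Afp encodes alpha-fetoprotein, the albumin relative that is the main plasma protein of the fetus, and lies at chr5:90490737-90508907 (plus strand, GENCODE vM21 on GRCm38). The 250 bases before the RefSeq gene start are given here for Afp, Gpc3 and Golm1, for which the reference table had an entry that lay mostly outside the gene. They are a description, and nothing is read from them about which genes were called. Of the 8 genes, 4 matched an entry by symbol, and that of Cdc42ep5 was left out because 155 of its 250 bases lie inside the GENCODE gene. Capitals mark motifs found on either strand by exact match. The letters searched were GTTAAT for a half-site of the hepatocyte factor HNF1 and TATAAA for the TATA box. The others were TGTTTAC for the core of a FOXA site and CCAAT for the box of that name. Sequences are from RefSeq on GRCm38.p6, 5′ to 3′ on the strand of the gene, at chr5:90490464-90490713 (plus), chrX:52613975-52614224 (minus) and chr13:59675785-59676034 (minus).
Afp: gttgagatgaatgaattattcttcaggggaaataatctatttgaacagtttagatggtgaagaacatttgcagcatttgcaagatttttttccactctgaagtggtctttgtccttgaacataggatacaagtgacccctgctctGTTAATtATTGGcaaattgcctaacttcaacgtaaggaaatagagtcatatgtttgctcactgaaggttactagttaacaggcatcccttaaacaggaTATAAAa
Gpc3: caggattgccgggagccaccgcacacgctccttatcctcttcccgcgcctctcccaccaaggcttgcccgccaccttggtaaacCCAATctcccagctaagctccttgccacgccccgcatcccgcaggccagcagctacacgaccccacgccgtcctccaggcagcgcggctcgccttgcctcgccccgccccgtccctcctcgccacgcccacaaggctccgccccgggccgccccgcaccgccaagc
Golm1: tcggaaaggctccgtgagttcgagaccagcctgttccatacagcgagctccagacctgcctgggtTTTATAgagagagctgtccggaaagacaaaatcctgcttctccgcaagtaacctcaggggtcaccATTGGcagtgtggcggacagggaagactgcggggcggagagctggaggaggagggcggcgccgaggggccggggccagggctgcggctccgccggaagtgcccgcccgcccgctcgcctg
The Afp window held GTTAAT, which 6.43% of 32851 promoter windows of that length hold, and TATAAA, which 12.4% hold, the latter 30 bases before the GENCODE start. It also held CCAAT on the reverse strand, 1 base after GTTAAT, and 33.8% of all windows hold that motif. Gpc3 held CCAAT on the forward strand, and Golm1 held TATAAA and CCAAT, both on the reverse strand. None of the 3 windows held TGTTTAC, which 3.17% of all windows hold. GC content was 36.0% for Afp, 71.6% for Gpc3 and 65.6% for Golm1, where the median of all windows was 52.4%. A match describes the letters only.

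Afp was at 5.17, 13.2, 4.12 and 1.60 FPKM in the ethanol-fed Aldh2-/- libraries 86, 89, 90 and 96, and at 1.58, 1.51, 0.510, 0.488 and 0.407 in WT libraries 5, 6, 7, 11 and 12. The groups nearly met, since library 96 at 1.60 was just above WT library 5 at 1.58, and library 89 was far above the other 3. Without library 89 the ratio of means fell to 4.05. In pair-fed Aldh2-/- libraries 1, 2 and 9 Afp was at 4.20, 4.29 and 6.02 FPKM, and in WT libraries 18, 19 and 20 at 1.79, 2.40 and 2.05, with no overlap. The log2 change was 0.91 ± 0.15 (SE; limma adjusted p = 0.0106), with an exact permutation p of 0.1, the smallest possible. After median-ratio rescaling it was 0.65 with an adjusted p of 0.0533, and in the joint fit of all 4 groups the adjusted p was 0.109.

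Alb, Afm and Gc, the albumin relatives, were not called by limma in either comparison, and at an unadjusted p under 0.05 Alb was lower under ethanol and 0 of the 3 passed under pair-feeding. Alb stood at 41100 ± 5414 and 53498 ± 6190 FPKM in ethanol-fed Aldh2-/- and WT libraries (SD, n = 4 and 5; adjusted p = 0.0969). Of 17 regulators of Afp tested under ethanol, 1 was called higher, Cebpb, and 6 lower, Foxa1, Foxa2, Cebpa, Nr5a2, Prox1 and Tbx3, beside 21.5% and 15.7% of all genes. Cebpa, the hepatocyte C/EBP factor, fell from 139 ± 39.9 in WT to 67.8 ± 17.9 FPKM (log2 change -1.01, limma adjusted p = 0.00621). Prox1, a hepatocyte homeobox factor, fell from 9.74 ± 2.43 to 5.11 ± 0.478 (log2 change -0.79, adjusted p = 0.00309), and Nr5a2, a nuclear receptor that activates Afp, from 7.74 to 4.70 (log2 change -0.63, adjusted p = 0.00518). Under pair-feeding 1 of the 17 was called higher and none lower, beside 26.0% and 2.41%. It was Trp53, at 17.3 ± 3.09 against 9.09 ± 1.41 FPKM (log2 change 0.85, adjusted p = 0.0139). Zhx2, the adult repressor named above and not the only regulator listed, ranged from 0.699 to 1.69 FPKM in ethanol-fed Aldh2-/- libraries. In ethanol-fed WT libraries Zhx2 ranged from 0.881 to 1.78, and it was called in neither comparison.

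H19 is an imprinted non-coding RNA transcribed from the maternal allele, at chr7:142575529-142578143 (minus strand), and its locus contains Mir675. It was low in every library. The ethanol-fed Aldh2-/- libraries held 0.656, 2.48, 0.675 and 0.566 FPKM and the WT libraries 0.247, 0.214, 0.289, 0.826 and 0.526, in the order of libraries given above. Library 89 stood alone, and without it the ratio of means was 1.5 in place of 2.61. The pair-fed Aldh2-/- libraries held 0.654, 0.360 and 2.40 FPKM and the WT libraries 0.472, 0.609 and 0.311. The high mean rested on library 9, without which the ratio was 1.09 in place of 2.45 (log2 change 0.43 ± 0.30, limma adjusted p = 0.284). Igf2, the reciprocally imprinted neighbour of H19, was at no more than 0.255 FPKM in any library. Among 6 imprinted genes tested under ethanol, 2 were called higher, Grb10 (2.28 against 0.626 FPKM, log2 change 1.02, adjusted p = 0.000306) and Peg3 (1.44 against 0.400, log2 change 0.79, adjusted p = 0.0166), and none was lower, beside 21.5% and 15.7% of all genes. Under pair-feeding none of 8 was called higher and 1 lower, beside 26.0% and 2.41%, the cell-cycle inhibitor Cdkn1c, which was lower at 2.44 against 4.28 FPKM (log2 change -0.62, adjusted p = 0.033).

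Gpc3 encodes glypican-3, a heparan sulfate proteoglycan anchored to the cell surface, at chrX:52272426-52613950 (minus strand). The ethanol-fed Aldh2-/- libraries held 3.38, 3.97, 3.30 and 1.93 FPKM and the WT libraries 3.54, 1.59, 0.342, 1.74 and 1.06. WT library 5 was higher than 3 of the 4 Aldh2-/- libraries, and WT library 7 was lowest of all. Under pair-feeding Aldh2-/- libraries held 0.831, 0.622 and 2.40 FPKM and WT libraries 0.281, 1.74 and 0.877. The direction depended on 1 library at a time: the log2 change was 0.21 ± 0.33 (SE; limma adjusted p = 0.649), -0.12 without Aldh2-/- library 9 and -0.07 without WT library 18. Relative to the median of all genes it was -0.05. Of the other glypicans, Gpc1 was lower in ethanol-fed Aldh2-/- libraries at 2.59 ± 0.593 against 5.34 ± 1.24 FPKM (log2 change -0.81, adjusted p = 0.003), and Gpc4 was not called in either comparison.

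Golm1 encodes the Golgi membrane protein known as GP73, measured in serum in liver disease, and lies at chr13:59634626-59675811 (minus strand), where Naa35 overlaps on the other strand. Whether the counting used strand is not given in the sources used here. Under ethanol the ranges of the genotypes overlapped, with 3.07, 4.01, 3.12 and 2.83 FPKM in the Aldh2-/- libraries and 3.22, 2.55, 2.23, 3.15 and 2.47 in the WT libraries. In the pair-fed Aldh2-/- libraries 1, 2 and 9 it was at 14.5, 13.7 and 8.83, and in WT libraries 18, 19 and 20 at 3.85, 3.95 and 2.84. The pair-fed Aldh2-/- libraries thus lay above every other library, with a log2 change of 1.53 ± 0.20 (SE). After median-ratio rescaling the log2 change was 1.24. These values may have entered the choice of the gene, so they are given as a description. Its relative Golm2 was also higher in pair-fed Aldh2-/- libraries, at 1.54 ± 0.0982 against 0.904 ± 0.0897 FPKM (SD, n = 3 and 3; log2 change 0.42, limma adjusted p = 0.0238), and was not called under ethanol (adjusted p = 0.34).

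Ly6d encodes a surface protein of the Ly6 family, anchored by a lipid tail, and is known as a marker of B-lineage precursors. It was the most abundant of the 8 genes in every group but ethanol-fed Aldh2-/-, where Cdc42ep5 had about the same mean. The ethanol-fed Aldh2-/- libraries held 40.9, 183, 60.5 and 37.5 FPKM and the WT libraries 36.8, 32.0, 27.9, 43.1 and 21.5. Without library 89 the ratio of means was 1.43 in place of 2.50. Under pair-feeding the values were 120.0, 122 and 96.0 FPKM in Aldh2-/- and 60.3, 77.2 and 43.0 in WT libraries, with no overlap (log2 change 0.92 ± 0.21, SE; 0.58 after median-ratio rescaling). B-cell markers were low, with a summed level of 7 markers at no more than 8.45 FPKM in any library. The highest sum belonged to pair-fed Aldh2-/- library 9, with 96.0 FPKM of Ly6d. Library 89, at 183 FPKM of Ly6d, had a sum of 6.90, the highest of the ethanol-fed libraries. The sums were 2.39 to 6.90 in ethanol-fed Aldh2-/- and 1.39 to 4.09 in ethanol-fed WT libraries. Of 3 B-cell markers tested, 1 was called higher under ethanol and none under pair-feeding, beside 21.5% and 26.0% of all genes. Their part in the Ly6d values was not tested. Of 8 related Ly6 genes tested under ethanol, 6 were called higher, Ly6a, Ly6c1, Ly6c2, Ly6e, Plaur and Gpihbp1, and 1 lower, Cd59a, beside 21.5% and 15.7% of all genes. Ly6a was at 22.5 against 5.51 FPKM (log2 change 1.74, adjusted p = 0.00105), Ly6c1 at 2.94 against 0.694 (log2 change 1.18, adjusted p = 0.00055) and Plaur, the urokinase receptor, at 3.27 against 0.801 (log2 change 1.22, adjusted p = 0.000477). Under pair-feeding 2 of 9 were called higher, Ly6e and Lynx1, and 1 lower, Ly6c2, where the shares of all genes were 26.0% and 2.41%. The share called higher was near that of all genes. Ly6e stood at 124 ± 22.3 against 63.1 ± 14.8 FPKM (log2 change 0.98, adjusted p = 0.0141).

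Cdc42ep5 encodes a Borg protein, an effector bound by the small GTPase Cdc42, and lies at chr7:4151260-4164860 (minus strand). The ethanol-fed Aldh2-/- libraries held 107, 42.3, 94.7 and 82.1 FPKM and the WT libraries 10.4, 8.93, 6.99, 5.18 and 4.57. The lowest of the former, 42.3, lay well above the highest of the latter, 10.4. Library 89 was the lowest of its group in Cdc42ep5 and Tff3 and the highest in Afp, H19, Gpc3, Golm1 and Ly6d. Under pair-feeding there was no such separation, with 12.6, 7.23 and 6.92 FPKM in Aldh2-/- and 9.01, 13.5 and 9.11 in WT libraries (log2 change -0.24 ± 0.24, SE; limma adjusted p = 0.44). The genotype differences of the 2 diets were not compared by a test. Of 5 genes of the Cdc42 group tested, 1 was called higher under ethanol and 1 under pair-feeding, no larger a share than the 21.5% and 26.0% of all genes. They were Cdc42ep2 under ethanol (2.95 ± 1.25 against 1.43 ± 0.382 FPKM, log2 change 0.66, adjusted p = 0.0262), and Cdc42 itself under pair-feeding (11.4 ± 1.32 against 6.67 ± 1.04, log2 change 0.70, adjusted p = 0.016).

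**Figure D4:**
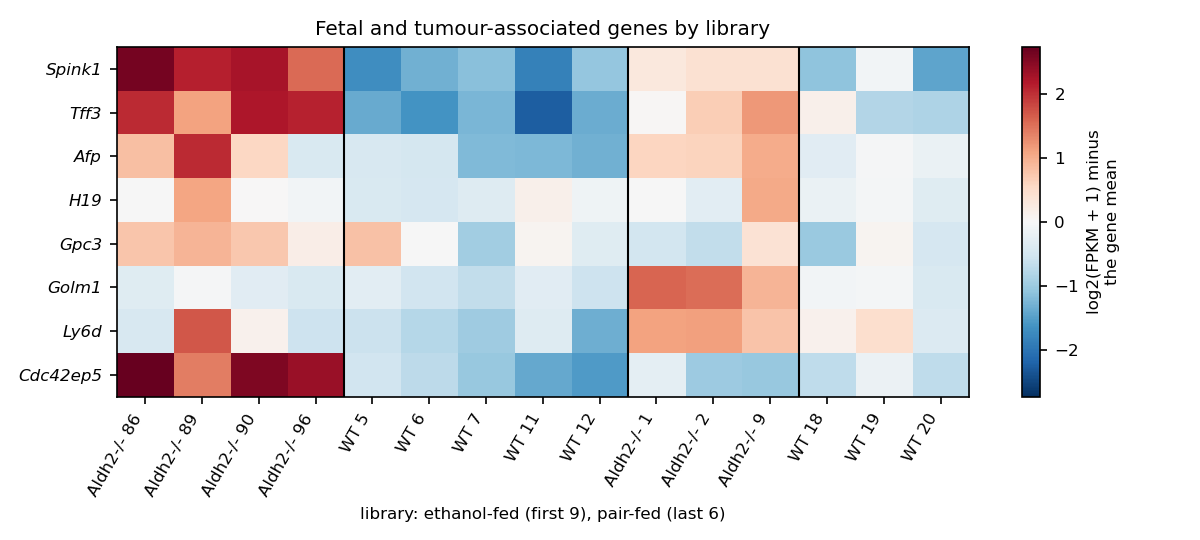
Level of each gene in each of the 15 libraries, as log2(FPKM + 1) minus the mean of that gene, not scaled to its SD. Ethanol-fed Aldh2-/- library 89 is the highest of its group in 5 of the 8 genes and pair-fed WT library 19 the highest of its group in 7 of the 8.

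Across the groups the genes differed in order. Spink1, Tff3 and Afp had the highest mean in ethanol-fed Aldh2-/- libraries, then pair-fed Aldh2-/-, pair-fed WT and ethanol-fed WT. For Afp the first place rested on library 89, without which the ethanol-fed Aldh2-/- mean was 3.63 FPKM, under the pair-fed 4.84. H19, Golm1 and Ly6d were highest in pair-fed Aldh2-/- libraries, and ethanol-fed WT had the lowest mean in 7 of the 8 genes, all but Gpc3. The H19 means of the Aldh2-/- groups were 1.14 FPKM pair-fed and 1.10 under ethanol. Their order turned without pair-fed Aldh2-/- library 9 (0.507 against 1.10) and without ethanol-fed library 86, 90 or 96 (1.24 to 1.27 under ethanol). Without single libraries ethanol-fed WT was no longer lowest in H19 (WT library 6 or 19) or in Cdc42ep5 (pair-fed Aldh2-/- library 1). Leaving out 1 library also moved places within the orders of Gpc3 (WT library 5 or 18, or Aldh2-/- library 9) and Ly6d (library 89), and no omission changed those of Spink1, Tff3 and Golm1. Between the Aldh2-/- groups, the ethanol mean of Cdc42ep5 was 9.16 times the pair-fed mean and that of Spink1 4.13 times, with no overlap, while Golm1 was 3.79-fold lower under ethanol, also with no overlap. In WT libraries Tff3 was 2.69-fold and Afp 2.32-fold lower under ethanol than under pair-feeding, with no overlap. Diet, deposited table and, by the titles, possibly CCl4 cannot be told apart in these ratios, which were not tested. The share of all genes without overlap between the diets was not computed, so nothing is read from the lack of overlap.

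Individual libraries were high or low in several of the genes at once. Ethanol-fed Aldh2-/- library 89 was the highest of its 4 in 5 of the 8 genes, beside 23.6% of all genes tested, and library 96 the lowest in 6 of the 8, beside 35.3%. Pair-fed Aldh2-/- library 9 was highest in 5 of the 8, beside 41.6% of all genes, and pair-fed WT library 19 in 7 of the 8, beside 30.1%. These are counts, with no test.

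The profile of each gene over the 15 libraries, on the log2(FPKM + 1) scale at mean 0 and SD 1, was compared by the mean absolute difference, where 0 means identical profiles. Among the 8 genes, Spink1 and Tff3 were closest at 0.346, followed by Spink1 and Cdc42ep5 at 0.431 and Afp and Ly6d at 0.468, and Gpc3 and Golm1 were farthest apart at 1.23. Among other genes that averaged 0.5 FPKM or more, the nearest to Cdc42ep5 was Lepr, the leptin receptor, at 0.158, with 7.03 ± 2.46 FPKM in ethanol-fed Aldh2-/- and 0.499 ± 0.396 in ethanol-fed WT libraries (SD, n = 4 and 5). The nearest to Golm1 were Hmgn2, a nucleosome-binding protein, at 0.174, and Erh at 0.180. Hmgn2 averaged 69.8 FPKM in pair-fed Aldh2-/- and 20.0 in pair-fed WT libraries. The nearest to Spink1 were Galnt6, an enzyme of mucin-type glycosylation, at 0.261 and Arhgap30 at 0.292, and to Tff3 AB124611 at 0.300 and Nfam1 at 0.310. The nearest to Afp were Crlf2 and Fmnl1, at 0.273 and 0.288, to Ly6d Anxa2 and Myl9, at 0.299 and 0.300, to Gpc3 Efemp1 and Ptgis, at 0.342 and 0.355, and to H19 Ifi47 and Snn, at 0.395 and 0.473. The points share 4 groups, so these distances are a description with no test.

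Of 21 further fetal and tumour-associated genes tested under ethanol, 11 were called higher and none lower, beside 21.5% and 15.7% of all genes, with a median log2 change of 0.64 against 0.04 over all genes. Akr1b8, an aldo-keto reductase, was at 12.5 ± 5.09 against 2.59 ± 0.831 FPKM (SD, n = 4 and 5; log2 change 1.87, limma adjusted p = 0.000534). Pkm, the pyruvate kinase of fetal and tumour tissue, was at 13.4 ± 7.12 against 2.84 ± 0.477 (log2 change 1.79, adjusted p = 0.000706) and Bex1 at 3.17 ± 1.10 against 0.682 ± 0.377 (log2 change 1.30, adjusted p = 0.000935). Under pair-feeding 10 of 20 were called higher and 1 lower, beside 26.0% and 2.41% of all genes, with a median of 0.40 against 0.26, and after median-ratio rescaling 2 and 1. Stmn1, a tubulin-binding protein of dividing cells, was at 110 ± 23.5 against 29.4 ± 10.5 FPKM in pair-fed libraries (SD, n = 3 and 3; log2 change 1.90, adjusted p = 0.0059) and at 19.4 ± 5.74 against 10.6 ± 1.30 under ethanol (log2 change 0.78, adjusted p = 0.00518).

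Markers of other cells moved in the same comparisons. Spp1, Epcam and Sox9 stand in the fetal list as well as among the cholangiocyte markers. The fetal list also shares Igf2, Dlk1, Peg3, Mest, Cdkn1c and Plagl1 with the imprinted genes. The calls of Peg3 under ethanol and of Cdkn1c under pair-feeding are thus counted in both lists. Under ethanol, 13 of 15 proliferation genes, 10 of 11 macrophage genes and 7 of 10 stellate-cell genes were called higher, beside 21.5% of all genes; under pair-feeding 13 of 16, 4 of 12 and 2 of 10 were, beside 26.0%. After median-ratio rescaling the pair-fed counts called higher were 5 of 16 proliferation genes and none of the macrophage, stellate, cholangiocyte, acinar, Ly6 or Cdc42 genes, and neither Golm2 nor Trp53 was called. The summed level of the macrophage genes was 346 to 765 FPKM in ethanol-fed Aldh2-/- and 138 to 204 in WT libraries, and of the proliferation genes 52.3 to 107 and 26.8 to 31.3. The pair-fed proliferation sums were 172 to 649 and 72.2 to 130. Hepatocyte markers summed to 56459 to 67339 FPKM in ethanol-fed Aldh2-/- and 68055 to 85602 in WT libraries. Most of each of these sums was Alb. Of the 11 hepatocyte genes tested under ethanol, 1 was called higher, Fgb, and 1 lower, beside 21.5% and 15.7% of all genes. The other 9 were not called. The part of all these markers in the differences of the 8 genes was not tested.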

How the data were processed

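Livers of 15 mice in 4 groups were analysed. The submitters' processing notes name fastp, HISAT2, HTSeq and the mm10 build, with no versions. Annotation and strand setting are not given in the sources used here. The authors deposited FPKM values in 2 tables, 1 per diet, for 23509 genes; 0 columns were left unused. All 120 values of the 8 genes were whole multiples of 1 step (tolerance 0.02 of a step), which gave fragment counts and the relative depth; absolute depth is not given in the sources used here. No identical library pairs were found (0). The labels name separate mice only by title. The limma p-values set a group difference against the spread between these libraries, with variances drawn towards a trend over all genes.

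Each genotype comparison was fitted within 1 table with limma 3.58.1 in R 4.3.3 (lmFit, eBayes with trend) on log2(FPKM + 1). Genes had to average 0.5 FPKM or more; log2 changes of low genes are understated by the pseudocount of 1. Genes with a two-sided Benjamini-Hochberg adjusted p under 0.05 were called. Single genes also had an exact permutation test. Groups did not overlap where the lowest library of either exceeded the highest of the other. The 8 genes, the gene lists and the rule for named genes (all 8, up to 4 list genes with the smallest p, measured paralogues of at least 0.5 FPKM in a group, and the 2 nearest profiles) were chosen with earlier results of these data known. Alternatives were another pseudocount (0.1), no filter or 2 FPKM, median-ratio, quantile and mitochondria-free scaling, robust variances, a joint fit, a replicate block, and leaving out libraries. The order of group means without single libraries was chosen after seeing the data. Fits were first tested on simulated data. Tables and figures were made in Python 3.11.15 with matplotlib 3.10.9, numpy 2.4.6 and pandas 2.3.3.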

Additional observations from a re-analysis of the deposited data

Results flagged for a closer look

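In ethanol-fed Aldh2-/- livers, library 89 stood apart from the other 3 in H19, at 2.48 FPKM, with a gap to the next library that was 0.943 of the group's whole range, above Dixon's 95% critical value for 4 libraries. The same library stood apart in Ly6d, at 183 FPKM, with a gap of 0.842 of the range. Chance flags about 1 in 20 groups, and 16 groups were tested.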

How the results depend on the processing

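Under ethanol, the count of all genes called (4098) stayed within 1.5 times under every alternative run: leaving out single libraries gave 3175 to 4736, and the share called higher among called genes fell from 57.7% to 45.2% under quantile normalization. Under pair-feeding the count depended on the processing: 3162 genes (91.5% higher) became 1103 without a filter, 667 after median-ratio rescaling (38.2% higher), 654 after quantile normalization (45.9% higher) and 1781 without the mitochondrial genes, and leaving out single libraries gave 294 (without Aldh2-/- library 1) to 2870, with 474 without WT library 20 and 1925 without Aldh2-/- library 2. Of the 8 genes, 5 were called higher under pair-feeding, and 2 without a filter, 1 after median-ratio rescaling, 1 after quantile normalization, 3 in the joint fit of all groups, 4 without the mitochondrial genes, and 2 to 4 when 1 library was left out (2 without Aldh2-/- library 1 or 2 or WT library 20). The cause was not tested. Gpc3 changed sign, at -0.12 without Aldh2-/- library 9 and -0.07 without WT library 18, and single omissions ranged up to 0.48 (without WT library 19). Same-numbered libraries did not deviate together (correlations -0.02, 0.03 and 0.01 in pair-fed, -0.09 to 0.25 in ethanol-fed pairs), so the numbers were not taken as pairs; with a replicate block 2912 pair-fed genes and 3120 ethanol genes were called, and 4 of the 8. Spink1, at 1 to 13 fragments in ethanol-fed WT libraries, is limited by counting there.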

Other observations

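Some low genes of the lists were high in 1 or 2 libraries; they were picked after their values were seen. Dlk1, an imprinted gene of fetal hepatoblasts, was at 4.42 FPKM in pair-fed WT library 20 and 1.77 in ethanol-fed WT library 7, and at no more than 0.186 in the other 13. It was tested under pair-feeding only and not called (log2 change -0.71, limma adjusted p = 0.346). Igdcc4 was at 0.668 FPKM in ethanol-fed Aldh2-/- library 89, which was also the highest of its group in Afp and H19, and at no more than 0.165 in the others, too low to be tested. Ly6k, a relative of Ly6d, was at 3.37 FPKM in pair-fed Aldh2-/- library 1 and at no more than 0.875 in the other libraries, and under pair-feeding it was not called (log2 change 0.77, limma adjusted p = 0.114).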
